A study of Mus musculus with 69 samples.

Results

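Primary microglia from female Tlr7 knockout (KO) pups were compared with those from female wild-type (WT) pups, all treated with DMSO and none with myelin. The comparison takes 6 of the 69 mouse libraries in the series, 3 KO and 3 WT, chosen by their labels for sex, genotype and treatment. They belong to an experiment of 24 microglia libraries in 8 groups of 3, in which WT and TLR7:-/- cells of each sex received DMSO or myelin. The pups were 1 to 3 days old. DMSO is shared by both groups compared here. The labels do not give the strain, the design of the Tlr7 allele or whether libraries of a group came from separate animals or cultures. The p-values therefore rest on the spread among these libraries alone, which may be technical. Genotype cannot be told apart here from mouse line, litter or preparation. A KO effect below means the difference between the KO and WT groups. RNA was counted by 3′ mRNA sequencing, in which each transcript is read near its polyadenylated end.

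Toll-like receptor 7 (TLR7) is an endosomal receptor of innate immune cells that binds single-stranded RNA. It signals through the adaptor MyD88 to NF-kB, which drives cytokine and chemokine genes, and to IRF7, which drives type I interferon. Interferon then acts back on the cells through its receptor and induces a large set of antiviral genes. Microglia, the resident macrophages of the brain, are a main site of its expression there, and its gene lies on the X chromosome.

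Library totals ran from 15.6 to 20.1 M counts in the 6 libraries, and 14468 genes were tested in a fit to all 24 microglia libraries. Levels are CPM (counts relative to the library total, after scaling by the trimmed mean of M values), and differences are log2 fold changes, KO minus WT, with their standard error (SE). A gene was called where edgeR's quasi-likelihood test gave an adjusted p (Benjamini-Hochberg) under 0.05, and all adjusted p-values below come from that test. KO replicate 1 lay apart from the other 5 libraries. Ttr, which encodes the choroid plexus protein transthyretin, stood at 499 CPM in it, at 54.7 and 42.5 CPM in the other KO libraries and at 145, 122 and 79.2 CPM in WT. The summed level of 14 microglial markers was alike in both groups, from 7703 to 7944 CPM in KO and from 7755 to 7807 CPM in WT. Csf1r, the receptor that microglia need to survive, had a fold change of 0.00 ± 0.03 (adjusted p = 0.98).

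Tlr7 (ENSMUSG00000044583, GRCm38 chromosome X, 167304929 to 167330558, minus strand) checked the genotype labels. It read 188, 191 and 197 CPM in the WT libraries and 2.26, 2.05 and 2.03 CPM in the KO libraries. All 3 KO libraries therefore matched their label, with a residue of 34 to 42 counts each, and the fold change was -6.50 (adjusted p = 6.25e-53). Its SE is left out, because the low KO counts make the F-based value too small. Xist, the RNA of the inactive X chromosome, was present in all 6 libraries at 369 to 490 CPM, and the Y-linked gene Ddx3y was at 0.596 CPM or less.

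The KO and WT libraries differed by many small changes. Of the 14468 genes, 1721 were called (11.9%), 784 higher in KO (5.42%) and 937 lower (6.48%). The median size of the called changes was 0.28 on the log2 scale, and 73.8% of them were under 0.5. A change of 1 or more was reached by 163 called genes (1.13%), 78 higher and 85 lower. Leaving out 1 library at a time left 1200 to 1383 calls, of which 1134 to 1275 were among the 1721. The plot of fold change against level shows Tlr7 far below the other genes of its level and most calls in a narrow band.

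**Figure D1:**
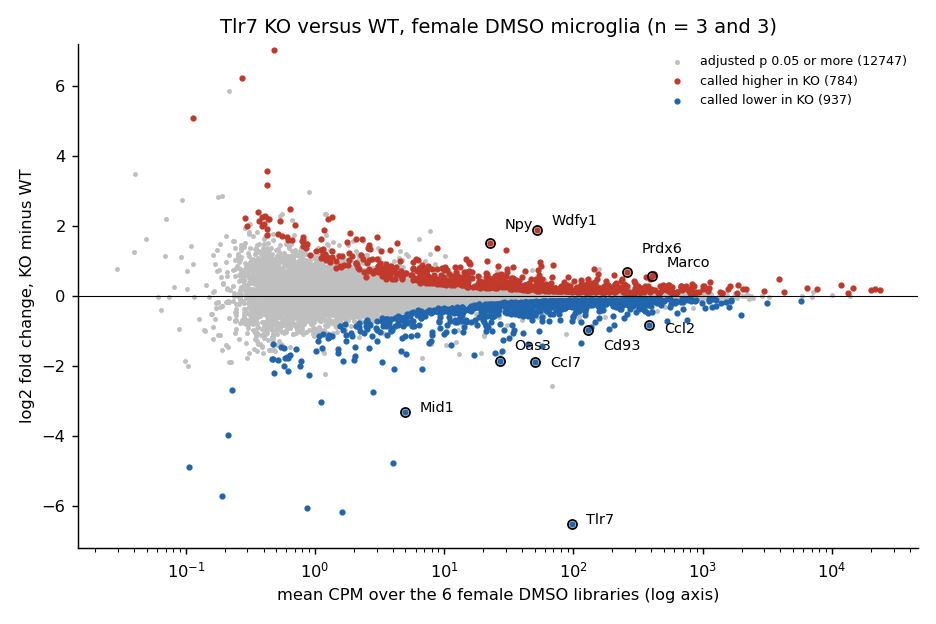
Log2 fold change, KO minus WT, of each tested gene against its mean CPM over the 6 female DMSO libraries (log axis), with the 784 genes called higher in red, the 937 called lower in blue and the others in grey. Tlr7 stands at -6.50 and Wdfy1 at 1.88, while most called genes lie within 0.5 of 0. The 2 genes beyond the axis limits are not drawn.

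Interferon-stimulated genes were lower in KO microglia. All 62 tested genes of the interferon response list had a negative fold change, with a list median of -0.77 against -0.01 over all genes tested, and 33 of them were called lower and 0 higher. The KO libraries lay wholly below the WT libraries in 60 of the 62, where 14.3% of all tested genes did so. The list holds the interferon-driven transcription factors, the 2′-5′ oligoadenylate synthetases that activate RNA decay, the Mx and guanylate-binding GTPases and the p200 family of DNA sensors.

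Irf7, the transcription factor that amplifies type I interferon, read 82.7, 43.3 and 67.9 CPM in WT and 22.1, 27.7 and 24.9 CPM in KO. The groups did not overlap, WT replicate 2 was the lowest WT library, and the fold change was -1.37 ± 0.39 (adjusted p = 0.0309). Oas3, an oligoadenylate synthetase gene, read 54.9, 27.5 and 44.5 CPM in WT and 8.97, 13.5 and 12.3 CPM in KO, a fold change of -1.85 ± 0.47 (adjusted p = 0.0148). Mx1, an antiviral GTPase gene, read 31.8, 19.6 and 27.0 CPM in WT and 7.08, 10.4 and 6.56 CPM in KO, a fold change of -1.68 ± 0.43 (adjusted p = 0.0155). For both genes WT replicate 2 again lay between the KO libraries and the other WT libraries. Oasl1, a relative of the synthetases that lacks their activity, had the largest fall of the list among genes of at least 4 CPM (-2.74 ± 0.62, from 4.90 to 0.707 CPM), and Oas2 (-1.62 ± 0.37) and Rtp4, a receptor transport protein induced by interferon (-1.56 ± 0.41), also fell. Of the p200 genes outside the list, Ifi206 fell by 2.09 and Ifi213 fell by 2.07 on the log2 scale. Widely used reporters of interferon did not pass the test: Ifit3 read 25.2, 11.6 and 23.2 CPM in WT and 3.97, 8.26 and 6.56 CPM in KO (-1.64 ± 0.60, adjusted p = 0.0932), and Isg15 had a fold change of -1.31 ± 0.49 (adjusted p = 0.102). Cxcl10, a chemokine gene induced by interferon, was near the limit of detection at 0.685 to 1.10 CPM in all 6 libraries.

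The number of interferon genes called depended on single libraries. Their direction stayed negative, but the groups did not overlap in 60 of the 62 genes. Leaving out 1 library could therefore hardly change the sign, and the stable sign is no separate support. Without each library in turn, the count called lower was 7 without WT replicate 1, 34 without WT replicate 2, 13 without WT replicate 3, 9 without KO replicate 1, 15 without KO replicate 2 and 11 without KO replicate 3, with all 62 fold changes negative each time and list medians from -0.90 to -0.65. With the levels of Ttr and Pdgfra, a gene of oligodendrocyte precursors, as covariates, 1 gene was called lower, 61 of 62 fold changes were negative and the median was -0.74. With no filter on low counts 20 were called lower, and with DESeq2 47. Irf7 was called only with all 6 libraries or without WT replicate 2, among the fits that leave out a library, and Oas3 lost its call without WT replicate 1 or KO replicate 1.

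To show what the promoters of these genes share, the 300 bases around their start (250 before, 50 after, from RefSeq on GRCm38.p6) were searched on both strands for the core of the interferon-stimulated response element, TTTC and TTTC with any 2 bases between them (on the other strand GAAA and GAAA), which interferon-activated transcription factors bind. These letters can overlap the TTCC core of ETS factors. Of the 33 genes called lower 25 had a promoter in the table, and 14 of them held the motif (56%). Of the 29 other genes of the list 24 had a promoter, and 14 held it (58.3%). Among all 27025 genes with a tabulated promoter, 3.99% held it, and among tested genes called lower 7.84%. The share was thus alike in called and uncalled genes of the list, and a match describes the letters and not a bound site. Below are the 100 bases before the start of the 4 called genes of at least 4 CPM with the largest falls among those whose motif lies there, 5′ to 3′ in the direction of the gene, with motif matches in capitals. Oas3 lies on the minus strand at chr5:120777660-120777759, Gbp3, a guanylate-binding protein gene, on the plus strand at chr3:142559944-142560043, Oas1g, another synthetase gene, on the minus strand at chr5:120887614-120887713, and Ifi211, of the p200 family, on the minus strand at chr1:173913047-173913146.
Oas3: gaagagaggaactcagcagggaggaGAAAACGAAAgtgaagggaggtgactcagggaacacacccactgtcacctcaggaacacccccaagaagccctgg
Gbp3: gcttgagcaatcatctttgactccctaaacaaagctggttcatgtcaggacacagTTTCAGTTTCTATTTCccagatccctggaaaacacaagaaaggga
Oas1g: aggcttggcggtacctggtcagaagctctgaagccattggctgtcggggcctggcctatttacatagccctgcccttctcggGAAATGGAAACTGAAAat
Ifi211: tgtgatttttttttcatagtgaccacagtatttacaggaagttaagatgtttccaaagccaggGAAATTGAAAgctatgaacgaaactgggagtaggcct
The motif starts 75 bases before the start of Oas3, 45 before that of Gbp3, 18 before that of Oas1g and 37 before that of Ifi211. Gbp3 and Oas1g each hold 2 overlapping matches. Gbp3 fell by 1.08, Oas1g fell by 1.0 and Ifi211 fell by 0.98 on the log2 scale. The oligoadenylate synthetase, p200 and guanylate-binding genes each have close relatives, and how the authors' counting split reads between them is not given in the sources used here.

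MHC class I genes, many of which interferon also induces, fell in part. Of 24 tested genes, 9 were called lower and 0 higher, and the median was -0.13. The count called lower was 5 without WT replicate 1, WT replicate 3 or KO replicate 1 and 4 with Ttr and Pdgfra as covariates. The peptide transporter gene Tap1 fell by 0.54, the transactivator gene Nlrc5 by 0.52 and the immunoproteasome genes Psmb9 and Psmb8 by 0.41 and 0.38 on the log2 scale, with Psme1, a proteasome activator, at -0.32 ± 0.05. H2-T24, a non-classical class I gene, went from 23.6, 12.7 and 20.5 CPM in WT to 9.03, 10.1 and 8.47 CPM in KO (-1.03 ± 0.32, adjusted p = 0.0462). Of the 15 tested genes of MHC class II and co-stimulation, 4 were called lower (2 with the covariates) and 0 higher, among them the invariant chain gene Cd74 (-0.51 ± 0.05, from 77.1 to 79.3 CPM in WT against 53.2 to 56.9 CPM in KO), the peptide loading gene H2-DMa (-0.45 ± 0.08) and the lectin gene Cd72 (-0.34 ± 0.07). Tap1 and H2-T24 lost their calls without any 1 library other than WT replicate 2, and Nlrc5 without WT replicate 1, WT replicate 3 or KO replicate 1.

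Chemokine genes that recruit monocytes fell. Ccl2 (ENSMUSG00000035385, chromosome 11, 82035571 to 82037453, plus strand), which attracts CCR2-bearing monocytes, read 492, 490 and 497 CPM in WT and 267, 295 and 277 CPM in KO. The groups were far apart relative to their spread, and the fold change was -0.82 ± 0.06 (adjusted p = 3.92e-08). Its neighbour Ccl7 read 85.1, 79.8 and 74.5 CPM in WT and 22.2, 20.9 and 22.1 CPM in KO (-1.88 ± 0.12, adjusted p = 5.55e-09). Ccl12, the third ligand of CCR2 in this cluster, went from 7.59, 6.05 and 7.33 CPM to 2.38, 2.49 and 2.09 CPM (-1.58 ± 0.25). Each of these 3 genes was lower in every KO library than in every WT library, as were 14.3% of all tested genes. The neutrophil attractant Cxcl3 fell by 1.01, the platelet factor gene Pf4 by 0.68 and Ccl6 by 0.55 on the log2 scale. Of the 25 tested genes of the chemokine list, 11 were called lower and 3 higher, with a median of -0.05, so the falls lay in part of the list. With the covariates 7 were called lower.

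NF-kB and cytokine genes moved the other way. Of 30 tested genes, 14 were called higher and 1 lower, with a median of 0.20. Nfkbie, which encodes an inhibitor of NF-kB and is itself induced by NF-kB, read 10.5, 11.5 and 10.6 CPM in WT and 17.5, 16.5 and 18.2 CPM in KO (0.68 ± 0.10, adjusted p = 1.39e-06). Il1a, the gene of interleukin 1 alpha, read 16.4, 17.8 and 17.4 CPM in WT and 25.8, 25.9 and 23.97 CPM in KO (0.55 ± 0.07, adjusted p = 4.08e-08). Both genes were higher in all 3 KO libraries than in any WT library, as were 12% of all tested genes. Relb, a subunit of non-canonical NF-kB, rose by 0.49, Birc3, an inhibitor of apoptosis, by 0.36 and Csf1, the growth factor of microglia, by 0.30, while Osm, the gene of oncostatin M, fell by 0.32 on the log2 scale. The count called higher was 12 to 13 without each library in turn and 9 with Ttr and Pdgfra as covariates.

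**Figure D2:**
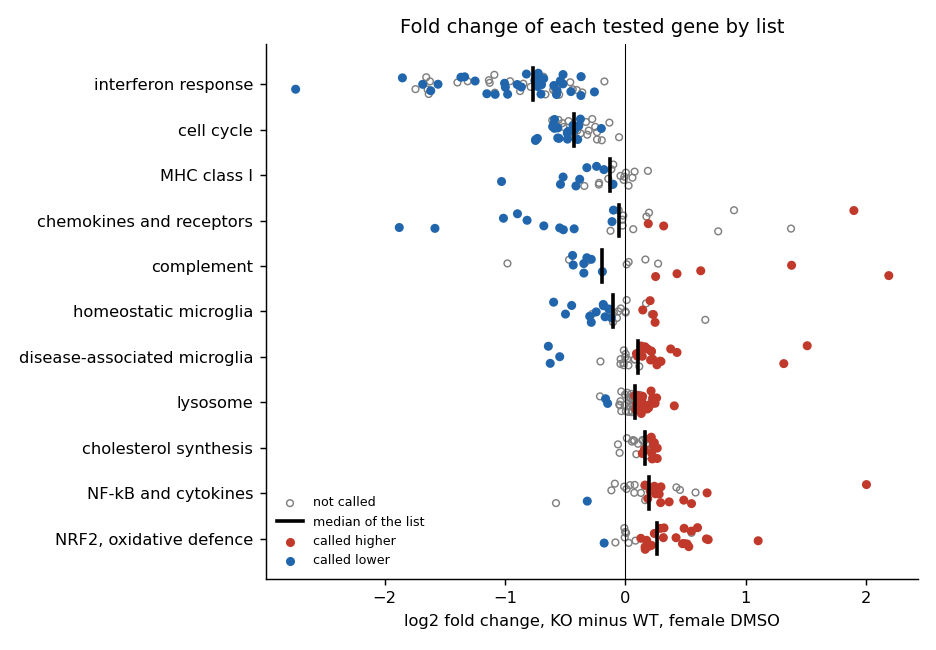
Log2 fold change, KO minus WT, of every tested gene in 11 lists (rows), with genes called higher in red, called lower in blue and not called as open circles, and a black bar at the list median; vertical scatter within a row has no meaning. The interferon response and cell cycle lists lie wholly below 0, with medians of -0.77 and -0.43, while the NRF2 list has a median of 0.27.

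Among the other receptors of the TLR7 pathway, 2 endosomal nucleic acid receptors fell. Tlr8, the X-linked neighbour of Tlr7, read 126, 124 and 128 CPM in WT and 91.7, 97.2 and 97.5 CPM in KO (-0.40 ± 0.05, adjusted p = 1.93e-08). Because it lies beside the altered gene, a local effect of the allele cannot be told apart from one of the pathway. Tlr9, the receptor of unmethylated CpG DNA, was at 8.72, 6.73 and 6.64 CPM in WT and 4.33, 6.16 and 5.31 CPM in KO (-0.47 ± 0.16, adjusted p = 0.0408). Tlr13, the receptor of bacterial ribosomal RNA, had a fold change of -0.03 ± 0.03 (adjusted p = 0.682). Tlr9 lost its call without WT replicate 1, KO replicate 1 or KO replicate 3. Of the 36 tested genes of the endosomal TLR pathway, 7 were called lower and 3 higher, with a median of -0.03 (1 higher without WT replicate 3 or with the covariates). The adaptor gene Myd88 fell by 0.20, and of the endosomal nucleases that degrade TLR ligands, Pld4 fell by 0.30 and Pld3 rose by 0.28 on the log2 scale. Of 18 receptors outside this pathway, 4 were called higher and 2 lower (1 lower without WT replicate 3, KO replicate 1 or KO replicate 2, or with the covariates). The lipopeptide receptor gene Tlr2 read 100, 110 and 111 CPM in WT and 155, 146 and 152 CPM in KO (0.49 ± 0.08), its partner gene Tlr1 fell by 0.49, the C-type lectin receptor gene Clec4n rose by 0.29 and Tlr4, the receptor of lipopolysaccharide, fell by 0.15 on the log2 scale.

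Antioxidant genes of the NRF2 programme rose. NRF2 is the transcription factor that switches on glutathione synthesis and detoxifying enzymes under oxidative stress. Of 30 tested genes, 21 were called higher and 1 lower, with a median of 0.27, and the count called higher was 20 without each library in turn and 19 with the covariates. Prdx6, a peroxiredoxin gene, read 194, 196 and 210 CPM in WT and 327, 309 and 322 CPM in KO (0.67 ± 0.04, adjusted p = 4.55e-21). Gclm, a subunit of the rate-limiting enzyme of glutathione synthesis, read 279, 291 and 312 CPM in WT and 421, 411 and 459 CPM in KO (0.55 ± 0.06, adjusted p = 9.76e-07). Every KO library was above every WT library for both, as for 12% of all tested genes. Slc7a11, the cystine importer, rose by 0.60, Me1, an NADPH-producing malic enzyme, by 0.69, the quinone reductase gene Nqo1 by 0.51 and the carbonyl reductase gene Cbr3 by 0.53 on the log2 scale.

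The promoters of these genes were searched on both strands for the core of the antioxidant response element, TGACNNNGC or its reverse complement GCNNNGTCA, which NRF2 binds and whose letters can overlap an AP-1 site. Of the 21 genes called higher 18 had a promoter in the table and 7 held the core (38.9%), against 2 of 7 of the other genes of the list (28.6%), 17.1% of all tested genes and 14% of all genes in the table. The windows below, from 150 to 51 bases before the start, are those of the 2 called genes of at least 4 CPM with the largest rises among those with a match there, Gclm at chr3:122245407-122245506 and Prdx1, another peroxiredoxin gene, at chr4:116685449-116685548, both on the plus strand of GRCm38.p6, with the match in capitals.
Gclm: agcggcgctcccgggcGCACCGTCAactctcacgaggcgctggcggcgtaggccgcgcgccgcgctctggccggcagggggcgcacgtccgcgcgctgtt
Prdx1: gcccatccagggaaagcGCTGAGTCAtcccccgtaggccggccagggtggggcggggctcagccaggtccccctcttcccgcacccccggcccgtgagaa
The match starts 134 bases before the start of Gclm and 133 before that of Prdx1. Prdx1 rose by 0.49 on the log2 scale, from 3088 to 3394 CPM in WT to 4419 to 4765 CPM in KO.

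Cell cycle genes fell together. All 40 tested genes had a negative fold change, with a median of -0.43, and 21 were called lower and 0 higher. Uhrf1, which maintains DNA methylation at replication, read 17.5, 18.8 and 19.1 CPM in WT and 11.0, 12.3 and 9.60 CPM in KO (-0.75 ± 0.11, adjusted p = 1.83e-06). Ccnd2, a cyclin of the G1 phase, read 20.7, 19.5 and 19.98 CPM in WT and 11.4, 10.9 and 14.1 CPM in KO (-0.73 ± 0.11, adjusted p = 1.3e-06). The replication helicase gene Mcm7 fell by 0.59 and the ribonucleotide reductase gene Rrm2 by 0.59, as did the mitotic genes Kif20a, by 0.75, and Cdc20, by 0.60 on the log2 scale. The count called lower was 15 to 18 without each library in turn.

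Genes of microglial state moved in both directions. Of 34 tested genes of the disease-associated programme, which microglia switch on around damage, 18 were called higher and 3 lower, with a median of 0.11. The largest rises in it among genes of at least 4 CPM were of Npy and Mamdc2. Npy, the gene of neuropeptide Y, read 12.1, 11.0 and 11.97 CPM in WT and 31.5, 33.5 and 34.9 CPM in KO (1.51 ± 0.09, adjusted p = 2.5e-16), and Mamdc2, a proteoglycan gene, rose by 1.32 on the log2 scale. Itgax, the integrin CD11c, rose by 0.43 and Trem2, the lipid receptor of the programme, by 0.09, while Apoe had a fold change of 0.00 ± 0.02. Axl, a receptor of the TAM family that clears apoptotic cells, went against the list, from 310, 295 and 297 CPM in WT to 192, 199 and 195 CPM in KO (-0.62 ± 0.04, adjusted p = 2.76e-19), and Ch25h, the cholesterol 25-hydroxylase, also fell (-0.64 ± 0.17).

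Of 28 tested homeostatic genes, 11 were called lower and 4 higher, with a median of -0.10. Gpr34 (-0.60 ± 0.12), Aif1 (-0.50 ± 0.09), the purine receptor gene P2ry12 (-0.45 ± 0.11) and the fractalkine receptor gene Cx3cr1 (-0.30 ± 0.09) fell, and Tmem119 had a fold change of -0.27 ± 0.15 (adjusted p = 0.268). Cx3cr1 lost its call without each library in turn. Genes of complement split: 7 of 19 were called lower and 5 higher. C1qb, a chain of the initiating complex C1q, read 1155, 1173 and 1173 CPM in WT and 925, 915 and 916 CPM in KO (-0.35 ± 0.03, adjusted p = 1.96e-13), C1qa fell by 0.28 and the C5a receptor gene C5ar1 by 0.44, while Cd59a, which blocks the membrane attack complex, rose from 4.30, 5.14 and 5.06 CPM to 11.4, 13.3 and 13.1 CPM (1.381 ± 0.15).

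Phagocytic receptors also split, with 9 of 31 called lower and 7 higher and a median of -0.01. Fcgr1, the high-affinity Fc receptor, read 279, 247 and 270 CPM in WT and 140, 155 and 155 CPM in KO (-0.82 ± 0.13, adjusted p = 0.000213). The scavenger receptor gene Marco went the other way, from 315, 333 and 327 CPM to 484, 477 and 494 CPM (0.58 ± 0.07, adjusted p = 1.89e-05). Mrc1, the mannose receptor, fell by 0.45 on the log2 scale.

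Lysosomal genes that were called mostly rose, by small amounts. Of 55 tested lysosomal genes, 22 were called higher and 2 lower, with a median of 0.08, and the count called higher was 11 without WT replicate 1 and 13 with Ttr and Pdgfra as covariates. The aspartic protease gene Ctsd rose by 0.22, the proton pump gene Atp6v0d2 by 0.26 and Ctsk by 0.41 on the log2 scale. Of 25 cholesterol synthesis genes, 10 were called higher and 0 lower, with a median of 0.17, led by Msmo1 and Idi1 at 0.27 each, and 4 were called higher with the covariates. Of 33 genes of lipid handling, many of them LXR targets, 7 were called higher and 3 lower, with a median of 0.03 (1 lower with the covariates). The monoglyceride lipase gene Mgll read 24.03, 23.5 and 26.2 CPM in WT and 40.3, 42.3 and 48.3 CPM in KO (0.83 ± 0.07, adjusted p = 9.55e-15), while the cholesterol exporter gene Abca1 had a fold change of -0.16 ± 0.09 (adjusted p = 0.298).

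The remaining lists had fewer or more divided calls. Of 23 iron and heme genes 7 were called higher and 2 lower (1 lower without WT replicate 3, KO replicate 1 or KO replicate 2, or with the covariates), with the iron exporter gene Slc40a1 at -0.28 ± 0.04 and the transporter gene Slc11a1 at 0.26 ± 0.03. Of 32 matrix and protease genes 9 were called higher and 7 lower, among them the metalloproteinase genes Mmp12 (0.30 ± 0.04) and Mmp13 (-0.37 ± 0.08). The count called lower among matrix and protease genes was 4 without KO replicate 3 and 3 with the covariates. Of 31 genes of the unfolded protein response and ATF4, 8 were called lower (5 without WT replicate 2 or KO replicate 2) and 3 higher, with the chaperone gene Pdia4 at -0.40 ± 0.03. Of 26 genes of glycolysis and hypoxia 7 were called higher and 1 lower, and of 23 immediate early genes 2 and 3. The glycolysis and hypoxia count called higher was 3 without WT replicate 1, 4 without WT replicate 3 or KO replicate 2 and 1 with the covariates. The immediate early count called higher was 0 without WT replicate 1 or WT replicate 2 and 1 without any 1 KO library. Of 14 mitochondrially encoded genes 4 were called higher and 0 lower, but 0 were called without WT replicate 1, 1 without WT replicate 3 or KO replicate 2, 2 without KO replicate 1 and 0 with the covariates. Of 13 genes that escape X inactivation or lie on the Y chromosome, 1 was called higher, the Y-linked Eif2s3y, chosen here after its values were seen, with 0.440 CPM or less in KO and 0 counts in WT.

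Outside the lists, the largest rises among genes of at least 4 CPM, leaving out symbols that are Gm numbers or Rik clones, were those of Wdfy1 and Rab4a. Wdfy1, which encodes an endosomal protein that recruits the adaptor TRIF to TLR3 and TLR4, read 23.2, 22.3 and 21.9 CPM in WT and 79.5, 82.1 and 86.1 CPM in KO (1.88 ± 0.05, adjusted p = 3.1e-34). It lies on chromosome 1 and was 3.68-fold higher in KO, with spreads in both groups far smaller than the gap. Rab4a, a GTPase of early endosomes, rose by 1.69, the cyclic nucleotide binding gene Cnbd2 by 1.51, Col24a1, a collagen gene, by 1.31, the basement membrane gene Nid1 by 1.27 and the tetraspanin gene Tspan7 by 1.07 on the log2 scale. Chil3, a chitinase-like protein of activated macrophages, fell from 3.86, 5.31 and 6.48 CPM to 1.53, 1.42 and 1.31 CPM (-1.88 ± 0.23). Unlike those genes, Chil3 is in a list, that of border macrophage and monocyte markers.

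**Figure D3:**
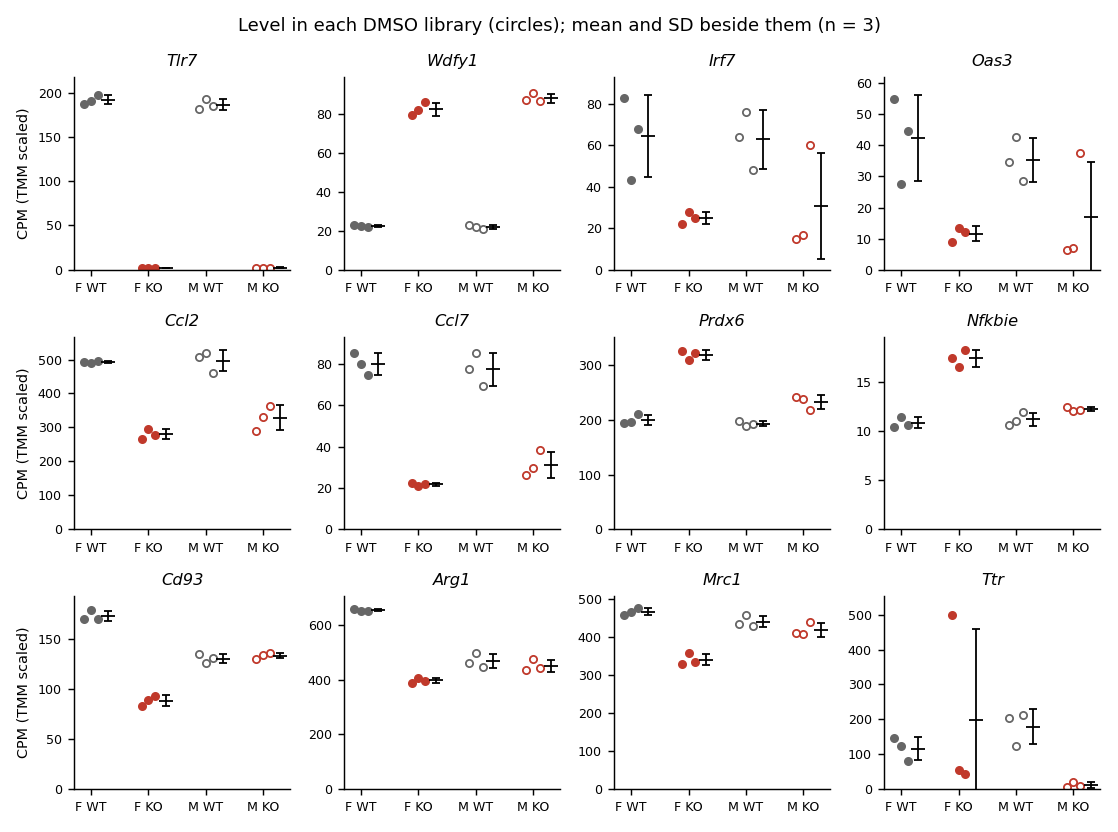
CPM of 12 genes in each DMSO library, filled circles for the 6 female and open circles for the 6 male libraries, WT in grey and KO in red, with the mean and SD of each group of 3 beside them; each axis starts at 0, where a longer SD bar ends. Female KO libraries lie below all female WT libraries for Ccl2, Ccl7, Cd93, Arg1 and Mrc1, as for 14.3% of all tested genes. Female KO replicate 1 stands apart at 499 CPM of Ttr, and 1 male KO library reaches 60.1 CPM of Irf7 and 37.5 CPM of Oas3.

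Genes near Tlr7 on the X chromosome were examined as a group, because neighbours can be inherited together with an altered allele. The strain is not in the labels, and whether these genes were inherited with the allele was not tested. Within 10 Mb of Tlr7, 46 other genes were tested and 8 were called, 7 lower and 1 higher (17.4%), against 43 of 429 X genes farther away (10%). Of 5 tested genes between 2 and 3 Mb beyond Tlr7, toward the pseudoautosomal boundary, 4 were called lower. Mid1, a ubiquitin ligase gene that crosses this boundary in laboratory mice, read 8.78, 10.3 and 7.96 CPM in WT and 0.916, 1.08 and 0.656 CPM in KO (-3.33 ± 0.21, adjusted p = 1.64e-18). The noncoding G530011O06Rik went from 8.34, 7.36 and 7.59 CPM to 0.427, 0.244 and 0.179 CPM, and Gm15726 from 21, 34 and 36 counts in WT to 0, 1 and 0 counts in KO, a ratio of summed counts of 92.8 (WT over KO, exact 95% interval 16.2 to 3710, counting error only). Gm15247 fell by 2.15 on the log2 scale, and all 3 noncoding genes lie within the span of Mid1. Mid1 and these 3 genes are 4 of the 8 calls within 10 Mb and lie at 1 locus. The share of 17.4% is therefore not spread over the region. On the other side of Tlr7 from Mid1, its nearest called neighbours fell, Tlr8 by 0.40 and the actin-binding gene Tmsb4x by 0.20. Farther away on that side, Rbbp7 fell by 0.17 and Car5b rose by 0.58 on the log2 scale. In 10 Mb windows of at least 20 tested genes over all chromosomes, the highest shares of called genes were 29.6% of 27 genes on chromosome 1 (120 to 130 Mb), 29.4% of 34 on chromosome 2 (140 to 150 Mb) and 27.3% of 22 on the X chromosome (10 to 20 Mb). The strand that the authors' counting used is not given in the sources used here, so reads of overlapping and antisense transcripts there cannot be told apart.

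**Figure D4:**
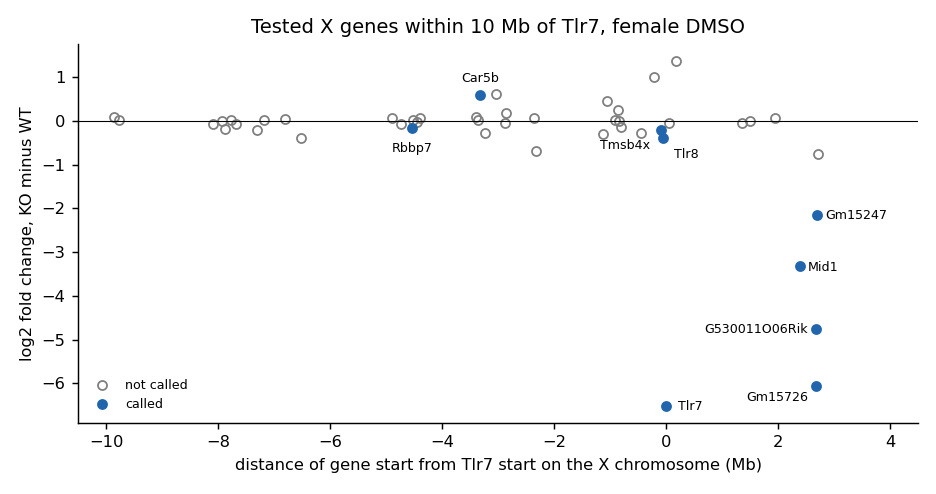
Log2 fold change, KO minus WT, of the 47 tested X genes within 10 Mb of Tlr7, itself included, against the distance of their start from that of Tlr7 (Mb; no tested gene lies beyond 2.705 Mb on the right). Filled circles are called genes, and the 4 lowest besides Tlr7 lie between 2 and 3 Mb from it; the value drawn for Gm15726, at 1 count over its KO group, is a fitted one.

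Markers of other cell types were summed in each library. Of 14 microglial markers 4 were called higher and 5 lower, with 2 higher without WT replicate 1, 3 lower without KO replicate 2 and 2 lower with Ttr and Pdgfra as covariates. The 15 markers of lymphocytes and erythroid cells summed to 0.934 CPM or less in every female library, and none was abundant enough to be tested. The summed level of 13 markers of oligodendrocyte precursors was higher in KO, at 135 to 152 CPM against 100.3 to 100.6 CPM in WT, and 3 of 9 tested were called higher (1 with the covariates), among them Cspg4 (0.87 ± 0.06) and Pdgfra (0.48 ± 0.12). Most of the difference in this sum came from Cspg4, at 65.5 to 77.6 CPM in KO and 37.1 to 42.2 CPM in WT. Of the 9 tested, 3 had a negative fold change. The summed level of 15 markers of myelinating oligodendrocytes was lower, at 206 to 224 CPM against 278 to 337 CPM, and 7 of 14 tested were called lower (4 without WT replicate 3, KO replicate 1 or KO replicate 3). Of 16 astrocyte genes 4 were called higher, but 1 without KO replicate 1, 2 without WT replicate 2 or WT replicate 3 and 1 with the covariates. Of 10 neuron genes 1 was called higher, which was Npy, of 8 endothelial genes 1 and of 11 choroid plexus and 8 mural and fibroblast genes 0. The choroid plexus sum was 741 CPM in KO replicate 1, 88.3 and 68.0 CPM in the other KO libraries and 127 to 211 CPM in WT, and the sums of mural and fibroblast genes were 16.4 to 49.8 and 15.8 to 22.5 CPM. Astrocyte genes summed to 108 to 167 CPM in KO and 95.2 to 102 CPM in WT, neuron genes to 49.6 to 52.4 and 27.0 to 30.4 CPM, and endothelial genes to 115 to 131 and 95.8 to 108 CPM. Most of the difference in the last 2 sums came from 1 gene each: Npy, which is also in the disease-associated list, made up 31.5 to 34.9 CPM in KO and 11.0 to 12.1 CPM in WT, and Vwf, the gene of von Willebrand factor, 70.8 to 81.9 and 53.0 to 65.4 CPM. Some single markers had 0 counts in all 6 libraries. Among them were Cldn5 and Emcn of endothelium, Gjb6 of astrocytes, Slc17a6 and Sst of neurons and S100a9 and Plac8 of blood monocytes and neutrophils. They were picked for their 0 counts, and other markers in the same lists were detected, so they do not show that a cell type was absent. Markers of border macrophages and monocytes summed to 3073 to 3436 CPM in KO and 3786 to 3974 CPM in WT, with 3 of 11 called lower, which were Chil3, Pf4 and Mrc1. In bulk RNA, fewer cells of a type and less RNA per cell cannot be told apart, and the part of these cells in the calls above was not tested beyond the fit with Ttr and Pdgfra as covariates, in which 842 genes were called.

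The comparison of male KO with male WT microglia in DMSO, which shares no library with the female one, called 3027 genes (20.9%), 1679 higher (11.6%) and 1348 lower (9.32%). Of the female calls, 886 were also called in males in the same direction, which is 51.5% of the female and 29.3% of the male calls, and 77 in the opposite direction. In males the interferon list had 32 of 62 genes called lower and a median of -0.74, and 24 genes were called lower in both sexes. The NF-kB and cytokine list had 7 of 30 genes called higher and 3 lower in males, with a median of 0.03. In males 1 KO library, replicate 3, lay within the WT range of Irf7, which read 14.9, 16.9 and 60.1 CPM in KO and 64.1, 76.2 and 48.2 CPM in WT. That library was also within the male WT range for Oas3 (37.5 CPM, WT 28.5 to 42.8 CPM) and Rtp4 (35.1 CPM, WT 33.5 to 51.9 CPM). The same held for Ifit3, Isg15, Oasl1, Gbp3 and Ifi211. For Mx1, Oas2 and Oas1g it lay below the WT libraries and above the other KO libraries. How far the male interferon calls depend on this library was not tested. Among genes of at least 4 CPM, the fold changes of the sexes had a Pearson r of 0.435 over 10223 genes, and over all genes of 0.016. Genes are not independent replicates, and no p is attached.

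The difference between the female and the male KO effect was tested directly, and 1089 genes were called (7.53%). Of the 1721 genes called in females, 379 were among them (22%). Cd93, a receptor gene of myeloid and endothelial cells, read 170, 179 and 170 CPM in female WT and 82.6, 89.4 and 93.3 CPM in female KO, and 135, 126 and 131 CPM in male WT and 131, 134 and 136 CPM in male KO. It fell by 0.97 in females, had a fold change of 0.03 ± 0.04 in males, and the difference was -1.0 ± 0.06 (adjusted p = 1.07e-17). Arg1, the arginase of alternatively activated macrophages, read 659, 652 and 653 CPM in female WT and 390, 407 and 397 CPM in female KO (-0.72 ± 0.03), and had a fold change of -0.05 ± 0.03 in males (difference -0.67 ± 0.05, adjusted p = 4.4e-16). Mrc1 shared this pattern, with -0.45 in females, -0.07 in males and a difference of -0.38 ± 0.05. For Cd93 and Arg1 the female WT libraries were the highest of the 4 groups and the female KO libraries the lowest.

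The lysosomal list differed in size: 46 of 55 genes were called higher in males, with a median of 0.28 against 0.08 in females, and 34 had a called difference, all 34 with the lower log2 fold change in females. Ctsb, a cysteine protease gene, had a fold change of 0.03 ± 0.02 in females and 0.40 ± 0.02 in males, and Gpnmb, a glycoprotein gene of the disease-associated programme, 0.23 ± 0.03 and 0.66 ± 0.03. In that programme 18 of 34 genes had a called difference, 15 of them with the more negative value in females. Prdx6, Tlr2 and Nfkbie had larger rises in females, with differences of 0.41 ± 0.05, 0.45 ± 0.11 and 0.55 ± 0.15. Markers of other cells moved with sex as well: the choroid plexus sum was 10.9 to 36.2 CPM in male KO and 184 to 321 CPM in male WT, and that of oligodendrocyte precursors 123 to 142 and 158 to 166 CPM. With Ttr and Pdgfra as covariates, the difference was called for 27 genes, against 1089 without them.

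**Figure D5:**
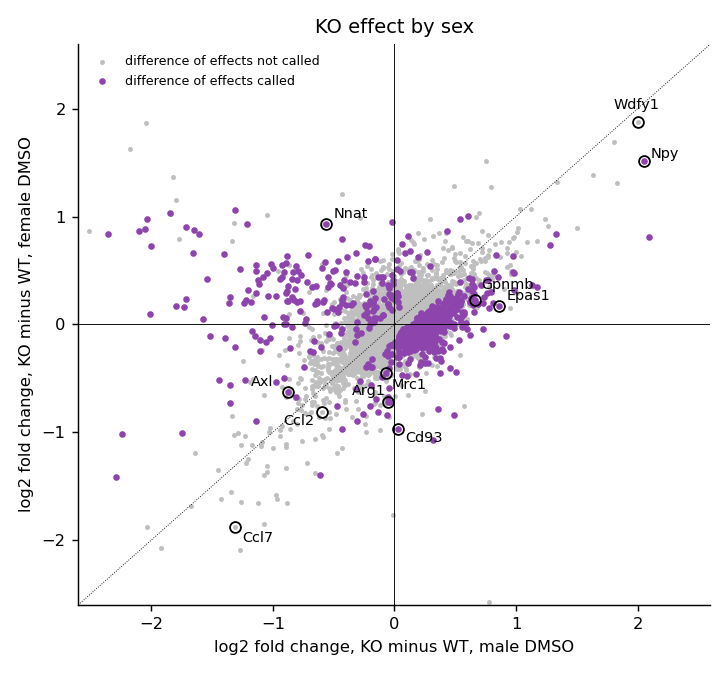
Log2 fold change, KO minus WT, in female against male DMSO microglia for 10206 genes of at least 4 CPM in a female group (17 others lie outside the axes), with a dotted line of equal effects and the 810 genes whose difference of effects was called in purple. Wdfy1 lies near the line, while Cd93 and Arg1 lie near 0 on the male axis and below 0 on the female axis.

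In female microglia that received myelin, a separate set of 6 libraries, KO against WT called 1053 genes (7.28%), 550 higher (3.8%) and 503 lower (3.48%). Of the 1721 genes called in DMSO, 598 were called there in the same direction, and 343 were called in the same direction in both sexes and both treatments. The 3 CCR2 ligands fell there too, Ccl2 by 0.59, Ccl7 by 1.21 and Ccl12 by 1.07 on the log2 scale, and the NRF2 list had 14 called higher and 0 lower. The NF-kB and cytokine list, of 30 genes, had 3 called higher and 4 lower there, with a median of 0.0. Of the interferon response list, 1 of 62 was called lower and 62 had a negative fold change, with a median of -0.34. Of the cell cycle list 5 of 40 were called lower. Whether these effects differed between DMSO and myelin was not tested.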

How the data were processed

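Raw counts per gene from 3′ mRNA libraries (QuantSeq forward kit, per the labels' protocols) were used as the authors deposited them, with coordinates on GRCm38. The submitters' processing notes name DESeq2 1.38.3. For the aligner, the counting program and strand, nothing is given in the sources used here. The labels call the molecule nuclear RNA, and the protocol names no step that isolates nuclei. Groups follow the labels' sex, genotype and treatment, and all count columns matched a sample by title. The 54532 genes of the table were filtered with filterByExpr over the 8 groups, scaled by TMM and fitted in R 4.3.3 with edgeR 4.0.16 (1 mean per group, robust quasi-likelihood, 24 libraries of 15.28 to 21.28 M counts, common biological coefficient of variation 0.0507). Contrasts were 2-sided, and SE is the fold change over the root of F. On simulated counts for 14249 genes in the female DMSO comparison, 74.0% of 1.5-fold and 93.0% of 2-fold changes were recovered, with 3 false calls. In it 100 genes were changed at each fold, and counts were drawn independently for each gene at the fitted dispersions. It therefore does not measure errors from genes that vary together or from an outlying library. No libraries were duplicates by a chi-square of their counts. Alternatives were another scaling (RLE), no filter, DESeq2 1.42.0, a replicate block, Ttr and Pdgfra as covariates, the compared libraries alone and leaving out each library. Intervals cover counting error only.

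Named genes were a fixed set of 19, up to 12 per direction by fold change (at least 4 CPM, groups not overlapping, no Gm or Rik symbol), up to 6 called per list by size (or the 2 highest where none of at least 4 CPM was called), up to 8 called within 10 Mb of Tlr7 and up to 8 by the sex difference. Prdx1, Gbp3, Oas1g and Ifi211, shown for their promoters, and Rbbp7 fall outside this rule and were named after their values were seen. Members, lists and tests were chosen with earlier results of these data known. The text counts all 33 lists. Promoters came from RefSeq (GRCm38.p6). A few genes covered by the rule are not reported here.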

Additional observations from a re-analysis of the deposited data

Results flagged for a closer look

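For the genes below, the difference between the female and the male KO effect (log2, female minus male) was itself called by edgeR's quasi-likelihood test, with p-values adjusted over all 14468 genes. Each is given as a value, and what underlies it was not tested. Below, lower and higher give the sign of the difference, and not a weaker or stronger effect.

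Among genes of varied function, the effect was lower in females for Cd93 (-1.0), Arg1 (-0.67), Npy (-0.54), Gpnmb (-0.43), Mrc1 (-0.38), Trem2 (-0.25) and Pdia4 (-0.17). It was higher for Cd74 (0.72), Itgax (0.28), Axl (0.26) and Csf1r (0.20). Among lysosomal and endosomal genes it was lower for Ctsb (-0.37), Ctsd (-0.33), Pld4 (-0.33), Atp6v0d2 (-0.31), Tlr13 (-0.25), Tlr8 (-0.21) and Pld3 (-0.16).

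Among genes of signalling and chemokines it was higher in females for Cxcl3 (1.23), Nfkbie (0.55), Tlr2 (0.45), Birc3 (0.42), Clec4n (0.27) and Pf4 (0.14). The same holds for the cyclin gene Ccnd2 (0.62) and for the antioxidant genes Nqo1 (0.49) and Prdx6 (0.41). Of the genes with a positive difference, Cxcl3, Pf4, Ccnd2, Cd74 and Axl fell in both sexes, and by less in females. Cxcl3, for example, had a fold change of -1.01 in females and -2.24 in males.

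Among markers of other cells it was higher in females for Ttr (4.88), Mlc1 (2.87), Pdgfra (1.32) and Cspg4 (0.43) and lower for Vwf (-0.77). The ciliary genes Cfap44 (8.40) and Cfap65 (6.90), the X-linked Gm4779 (4.96) and the sex-linked Eif2s3y (5.44) and Xist (-5.77) are near 0 counts in at least 1 of the 4 groups, so their fitted differences depend on the prior count and are not sizes of an effect.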

How the results depend on the processing

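Called genes numbered 1721 in the female comparison and 1089 in the difference between sexes. The counts were 1701 and 1016 with RLE scaling, 1609 and 1103 with no filter on low counts, and 1527 and 976 with DESeq2. The 6 female libraries alone gave 1551 calls, and the 12 DMSO libraries alone 943 called differences. Leaving out 1 library at a time gave 1200 to 1383 and 809 to 1072. With Ttr and Pdgfra as covariates the counts were 842 and 27, and the fold change of Pdgfra, fixed near 0 by its own use as a covariate, was -4.26e-05. The cause of the lower counts was not tested. The replicate block gave 1830 and 1220 calls. Deviations of WT and KO libraries of the same number had correlations of 0.044, -0.00119 and 0.103. Pairs of different number had correlations from -0.115 to 0.0697. The labels give no pairing, and such correlations within groups of 3 cannot tell whether libraries of the same number shared a preparation. Without the block, the unadjusted p was under 0.05 for 3324 genes. Of 124 genes named, 93 kept their direction and side of the threshold with the covariates, and 104 to 119 without single female libraries. Calls of Mx1, Rtp4, Oas1g, Gbp3, Ifi206, Ifi211, Ifi213, Cdc20, Rrm2, Idi1, Myd88, Tlr4, Trem2, Rbbp7 and Eif2s3y were also lost without at least 1 single library. Genes of 1 to 3 counts in a group have wide intervals.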

Other observations

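A few genes were at or near 0 counts in 1 group. They were chosen after their values were seen and fall outside the rule for named genes. Gm42031, a noncoding gene on chromosome 8, had 0 counts in all 3 WT libraries and 137, 193 and 131 counts in the KO libraries, at least 150-fold higher against 3 counts over the WT group. In male DMSO cultures it stood at 5.95, 5.46 and 6.46 CPM in KO and at 0.0619 CPM or less in WT. Gm4779 and 8030474K03Rik lie side by side on the X chromosome. Both had 0 counts in WT, and in KO Gm4779 had 37, 35 and 20 counts, at least 30.1-fold higher, and 8030474K03Rik 18, 14 and 19 counts, at least 17.0-fold higher. Ifi208, a p200 family gene, had 64, 40 and 62 counts in WT and 0, 2 and 0 in KO, a ratio of 84.7 (WT over KO, exact 95% interval 23.1 to 705, counting error only).

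A few further genes, also chosen after their values were seen, were highest in KO replicate 1. Cfap65 and Cfap44, which encode ciliary proteins, read 1.89 and 1.95 CPM in that library. In the other 5 female DMSO libraries Cfap65 was at 0.2445 CPM or less, and so was Cfap44. The astrocyte gene Mlc1 read 4.70 CPM in KO replicate 1 and 1.37 CPM or less in the others, and the complement gene C4b 4.03 CPM and 1.61 CPM or less. All 4 were called higher in KO. Without KO replicate 1 none of these 4 was called in edgeR's test, with adjusted p-values of 0.485 for Cfap65, 0.403 for Cfap44, 0.151 for Mlc1 and 0.119 for C4b.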
